A study of Homo sapiens with 6 samples.

Results

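The genes described here are 10 regulators of the integrated stress response (ISR): the transcription factors ATF4, CEBPB, CEBPG, ATF5, ATF3 and DDIT3, and the feedback and effector genes TRIB3, PPP1R15A, SESN2 and STC2. They were picked out by symbol from the 53715 genes of the count table, a choice made with earlier results of these data known. All 10 were found and passed the filter on low counts. The samples were primed H9 cells, an established line of human embryonic stem cells. They were collected for RNA sequencing 48 hours after receiving 25 nM of 1 of 3 oligonucleotides that carry fluorescein. The groups were ASO-L1, an antisense oligo against the transposable element LINE1 (L1), sO-L1, a sense oligo of L1, and ASO-Ctr, a non-targeting antisense oligo, with 2 libraries each. Every group also received 3 compounds, trans-ISRIB at 0.7 uM, the caspase inhibitor emricasan at 5 uM and the ROCK inhibitor Y-27632 at 10 uM, which the protocol says were removed after 24 hours. Sorted tagged cells of 1 cell line were used throughout, and the labels name mTeSR in one place and RSeT in another as the medium after transfection. No label gives the replicates as separate cultures, so p-values measure only the spread between these libraries, which may be technical. For most genes the tests take that spread largely from all genes together and less from the gene's own libraries.

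In the ISR, stress-sensing kinases phosphorylate the initiation factor eIF2, which lowers the activity of its exchange factor eIF2B and slows protein synthesis in general. Translation of a few messages rises at the same time, ATF4 first among them, and the ATF4 protein then acts on DNA as a dimer with partners such as the C/EBP proteins. ISRIB binds eIF2B and keeps it active, which dampens this response while the drug is present. The response also builds its own brakes, among them a phosphatase subunit that restores eIF2 and a pseudokinase that binds ATF4. Levels of ATF4 protein depend on translation, which RNA counts do not measure.

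All 10 genes were higher in ASO-L1 than in sO-L1 and higher in ASO-L1 than in ASO-Ctr, by 1.29-fold to 4.02-fold. Between sO-L1 and ASO-Ctr 0 of 10 were called. Levels are CPM values, counts relative to the size of the library with TMM scaling, and adjusted p-values are from edgeR's quasi-likelihood test over 19156 genes, blocked on replicate number, with Benjamini-Hochberg adjustment. A gene was called at an adjusted p under 0.05. By this rule 10.3% of all tested genes were called higher and 12.7% lower in ASO-L1 against sO-L1, and 9.88% higher and 11.6% lower in ASO-L1 against ASO-Ctr. Without the replicate block, 7 and 9 of the 10 were called higher in these comparisons, against 0.914% higher and 0.924% lower, and 0.903% higher and 1.05% lower, of all tested genes. The fold changes had a median of 1.03 on the log2 scale in both comparisons, against -0.00051 and -0.0024 over all tested genes. For all 10 genes both ASO-L1 libraries lay above both libraries of the other group, as for 23.6% and 23.8% of all tested genes. Both comparisons use the same ASO-L1 libraries, so they are not independent of each other.

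Library totals ranged from 18897936 to 67192937 counts, the shallowest being ASO-Ctr replicate 1. The pluripotency markers POU5F1, SOX2, NANOG, LIN28A and 6 others were detected in every library and summed to between 10341 and 11028 CPM. Of these 10 markers 1 was called higher and 3 lower in ASO-L1 against sO-L1, and 1 higher and 2 lower against ASO-Ctr. Over all tested genes these shares were 10.3% and 12.7%, and 9.88% and 11.6%. SOX2 was the higher one (0.20 ± 0.05 on the log2 scale against sO-L1), and L1TD1 (-0.23 ± 0.05), DNMT3B (-0.22 ± 0.05) and NANOG (-0.17 ± 0.05) were the lower ones (adjusted p = 0.00117, 1.3e-04, 3.2e-04 and 0.0128), with unblocked values of 0.268, 0.167, 0.193 and 0.29. L1TD1 was not called against ASO-Ctr (-0.06 ± 0.05, adjusted p = 0.447). It stood at 1513 and 1628 CPM in ASO-L1, 1853 and 1838 CPM in sO-L1 and 1561 and 1702 CPM in ASO-Ctr. Of 22 markers of mesendoderm, neuroectoderm, trophoblast and fibroblasts, 13 could be tested. CDX2, DCN and GATA3 had at most 4 counts in any library. FOXA2 fell (1.95 and 1.61 CPM in ASO-L1, 3.82 and 3.84 in sO-L1, 3.66 and 3.16 in ASO-Ctr) and COL1A1 rose (77.1 and 72.5 CPM in ASO-L1, 45.6 and 51.1 in sO-L1, 42.9 and 54.1 in ASO-Ctr) in both ASO-L1 comparisons. EOMES, with at most 38 counts in a library, also rose, calls lost without the replicate block (adjusted p = 0.362 and 0.251). MIXL1, T, SOX1, PAX6, ZIC1, KRT7, PDGFRA, COL1A2, PDGFRB and COL3A1 were not called in either. COL3A1 had 47, 33 and 18 counts in replicate 1 of ASO-L1, sO-L1 and ASO-Ctr, and 4, 7 and 2 in replicate 2. The part of these lineage markers in the results was not tested. The fibroblast list summed to 174 and 182 CPM in ASO-L1, 146 and 173 CPM in sO-L1 and 148 and 167 CPM in ASO-Ctr. Mitochondrial genes held between 3.79% and 4.24% of counts. In bulk RNA, more cells that express a gene and more RNA in each cell cannot be told apart.

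DNA letters that dimers of these factors are known to recognise were looked for in the 250 bases before each annotated start, in RefSeq promoter sequences of build GRCh38.p14. All 10 genes matched that table, with 19 starts. The search used the core letters of the C/EBP-ATF response element, TGATGNAA, and the cyclic AMP response element, TGACGTCA, on both strands. The matches lie in different genes and do not overlap. TGATGNAA was found before a start of ATF3 and of CEBPG, 2 of 10 genes, against 3.89% of all 27305 symbols in the table. Counted by start this was 2 of 19, against 3.14% of 35116. TGACGTCA was found before PPP1R15A, 1 of 10 genes, against 2.03% of all symbols, or 1 of 19 starts, against 1.65%. Each match is shown with 11 bases on either side, in lower case with the match in capitals, because these are the members whose own promoter windows hold such letters.
ATF3, chr1:212565205-212565234, plus strand, first matched base 191 bases before the start: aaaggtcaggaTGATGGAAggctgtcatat
CEBPG, chr19:33374060-33374089, plus strand, 42 bases before the start: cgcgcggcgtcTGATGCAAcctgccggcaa
PPP1R15A, chr19:48872352-48872381, plus strand, 58 bases before the start: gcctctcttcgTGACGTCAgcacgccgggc
The counts were made on build hg19, so these coordinates belong to the reference and not to the counting. A match is a description of letters and not a binding site. The other 7 genes held neither set of letters in these windows, which says nothing of elements elsewhere.

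ATF4 encodes the central transcription factor of the response. It stood at 465.2 and 412 CPM in ASO-L1, 361.3 and 318.3 CPM in sO-L1 and 341.7 and 313.2 CPM in ASO-Ctr. Both ASO-L1 libraries lay above the other 4, and in each group replicate 1 was the higher. The rise was 1.29-fold against sO-L1 (95% interval 1.21 to 1.38, adjusted p = 1.6e-08) and 1.34-fold against ASO-Ctr (1.25 to 1.43, adjusted p = 7.3e-10). It was the smallest of the 10 in both comparisons, and both calls were lost without the replicate block (adjusted p = 0.0842 and 0.0568). Within replicate numbers, the log2 ratio to sO-L1 was 0.36 in replicate 1 and 0.37 in replicate 2. The processed pseudogenes ATF4P3 and ATF4P4 had at most 13 counts in any library, against 6435 or more for ATF4.

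CEBPB and CEBPG encode C/EBP proteins that pair with ATF4. CEBPB stood at 36.1 and 27 CPM in ASO-L1, 17 and 17.3 CPM in sO-L1 and 16.4 and 16.6 CPM in ASO-Ctr. The 4 libraries outside ASO-L1 lay close together, while the 2 ASO-L1 libraries differed from each other. CEBPB rose 1.81-fold against sO-L1 (1.62 to 2.03, adjusted p = 1.4e-10) and 1.86-fold against ASO-Ctr (1.65 to 2.09, adjusted p = 1.2e-10). CEBPG stood at 114.6 and 98.8 CPM in ASO-L1, 84.6 and 79.5 CPM in sO-L1 and 77.3 and 78.4 CPM in ASO-Ctr. It rose 1.30-fold against sO-L1 (1.21 to 1.39, adjusted p = 1.7e-07), a call lost without the replicate block (adjusted p = 0.0623), and 1.36-fold against ASO-Ctr (1.26 to 1.46, adjusted p = 6.7e-09).

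ATF5, a factor related to ATF4 whose translation is also raised under stress, moved most. It stood at 84.3 and 55.1 CPM in ASO-L1, 20.3 and 15.8 CPM in sO-L1 and 18.9 and 14.9 CPM in ASO-Ctr. The lower ASO-L1 library was still far above all others, and replicate 1 was the higher in every group. ATF5 rose 3.80-fold against sO-L1 (3.47 to 4.16, adjusted p = 2.8e-28) and 4.02-fold against ASO-Ctr (3.66 to 4.41, adjusted p = 4.9e-28). In the annotation of GENCODE release 29, ATF5 overlaps NUP62 and IL4I1 on the opposite strand, and the strand setting of the authors' counting is not given in the sources used here. NUP62 was lower in ASO-L1 than in sO-L1 (log2 fold change -0.21 ± 0.05 SE, adjusted p = 7.7e-04), and IL4I1 had at most 22 counts in any library.

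ATF3 and DDIT3 lie downstream of ATF4. ATF3, a stress-induced bZIP factor, stood at 23.2 and 21.1 CPM in ASO-L1, 8.84 and 10.1 CPM in sO-L1 and 9.13 and 10.3 CPM in ASO-Ctr. Its 2 ASO-L1 libraries lay close together and well above the other 4. ATF3 rose 2.31-fold against sO-L1 (2.05 to 2.60, adjusted p = 1.4e-15) and 2.24-fold against ASO-Ctr (1.98 to 2.53, adjusted p = 1.6e-14).

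DDIT3 encodes CHOP, a C/EBP relative linked to cell death under prolonged stress. It stood at 12.6 and 6.89 CPM in ASO-L1, 3.88 and 3.15 CPM in sO-L1 and 3.56 and 2.55 CPM in ASO-Ctr, from 67 to 575 counts a library. ASO-L1 did not overlap the other groups, but its replicate 1 was 1.83 times replicate 2, the widest gap between replicates among the 10 genes. DDIT3 rose 2.65-fold against sO-L1 (2.23 to 3.15, adjusted p = 1.3e-12) and 3.06-fold against ASO-Ctr (2.54 to 3.69, adjusted p = 1.9e-13). It overlaps MARS, an aminoacyl-tRNA synthetase gene, on the opposite strand, and MARS was higher in ASO-L1 than in sO-L1 by 0.28 ± 0.05 on the log2 scale (adjusted p = 9.2e-06). It also overlaps MBD6 on that strand, which had 406 to 1571 counts a library and was higher against sO-L1 by 0.28 ± 0.07 (adjusted p = 0.00232) but not called against ASO-Ctr (0.14 ± 0.07, adjusted p = 0.16). Reads of DDIT3 could not be separated from those of MARS and MBD6 here if strand was not used in counting.

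**Figure D1:**
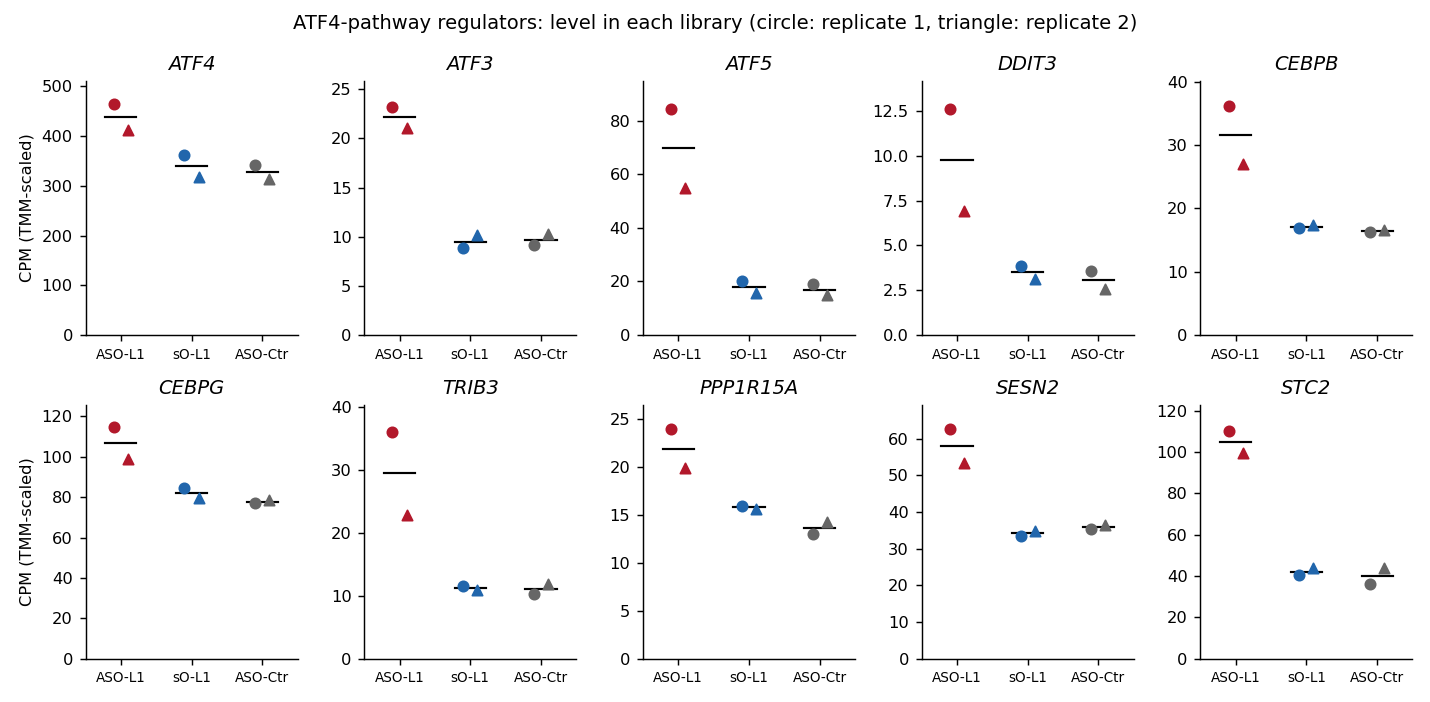
Level of each of the 10 genes in each library, in TMM-scaled CPM on linear axes that start at 0. Circles are replicate 1, triangles replicate 2 and bars the mean of the 2 libraries. In every panel both ASO-L1 libraries lie above the 4 sO-L1 and ASO-Ctr libraries, with the widest separation for ATF5.

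TRIB3 encodes a pseudokinase that is induced by ATF4 and CHOP and binds ATF4. It stood at 36 and 22.8 CPM in ASO-L1, 11.6 and 10.9 CPM in sO-L1 and 10.2 and 11.8 CPM in ASO-Ctr. The ASO-L1 libraries differed widely from each other, and both lay above the rest. TRIB3 rose 2.55-fold against sO-L1 (1.65 to 3.94, adjusted p = 0.0235) and 2.46-fold against ASO-Ctr (1.57 to 3.85, adjusted p = 0.0301). It had the widest interval of the 10 genes in the blocked fit and the least stable call. Without the block its SE on the log2 scale against sO-L1 was 0.191, below 0.280 for DDIT3 and 0.206 for ATF5. The wide interval therefore depends on the fit. The call against sO-L1 was lost without sO-L1 replicate 1 (adjusted p = 0.129) and both were lost when libraries were thinned to the shallowest (adjusted p = 0.161 and 0.154). The call against ASO-Ctr was lost with only the 4 libraries compared (adjusted p = 0.0667). Without the replicate block TRIB3 passed in both comparisons (adjusted p = 0.012 and 0.0133). Over the 15 alternatives its adjusted p ran from 4.6e-64 to 0.161 against sO-L1 and from 6.8e-51 to 0.154 against ASO-Ctr, while its log2 fold change was at most 1.71 in both and at least 1.02 against sO-L1.

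PPP1R15A encodes GADD34, the inducible subunit that directs protein phosphatase 1 to eIF2. It stood at 23.9 and 19.8 CPM in ASO-L1, 15.9 and 15.6 CPM in sO-L1 and 13 and 14.2 CPM in ASO-Ctr. The 3 groups did not overlap, with sO-L1 in the middle. PPP1R15A rose 1.38-fold against sO-L1 (1.24 to 1.54, adjusted p = 1.2e-05), a call lost without the replicate block (adjusted p = 0.0739), and 1.56-fold against ASO-Ctr (1.39 to 1.75, adjusted p = 4.6e-08). Its constitutive counterpart PPP1R15B stood at 113.5 and 109.3 CPM in ASO-L1, 83.9 and 85 CPM in sO-L1 and 90.7 and 87.9 CPM in ASO-Ctr. PPP1R15B also rose, by 0.40 ± 0.05 on the log2 scale against sO-L1 (adjusted p = 1.3e-08) and by 0.32 ± 0.05 against ASO-Ctr (adjusted p = 2.2e-06, or 0.0527 without the replicate block).

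SESN2 encodes sestrin 2, a leucine sensor that restrains mTORC1. It stood at 62.6 and 53.3 CPM in ASO-L1, 33.6 and 34.8 CPM in sO-L1 and 35.4 and 36.4 CPM in ASO-Ctr. SESN2 rose 1.68-fold against sO-L1 (1.55 to 1.83, adjusted p = 8.4e-14) and 1.59-fold against ASO-Ctr (1.46 to 1.74, adjusted p = 5.0e-12). STC2 encodes stanniocalcin 2, a secreted glycoprotein induced under endoplasmic reticulum stress. It stood at 110 and 99.5 CPM in ASO-L1, 40.5 and 43.7 CPM in sO-L1 and 36.2 and 43.9 CPM in ASO-Ctr. STC2 rose 2.48-fold against sO-L1 (2.27 to 2.71, adjusted p = 6.6e-17) and 2.57-fold against ASO-Ctr (2.34 to 2.81, adjusted p = 6.3e-17). For both genes the 4 libraries outside ASO-L1 lay close together.

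**Figure D2:**
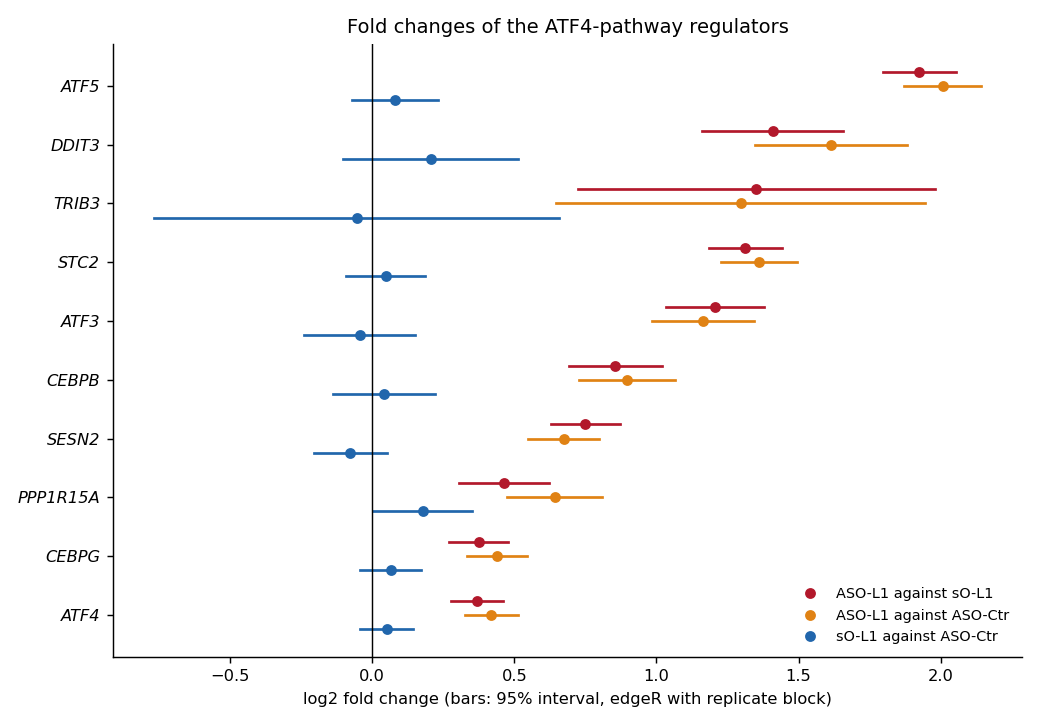
Log2 fold change of each gene in the 3 comparisons, with 95% intervals from edgeR with the replicate block, ordered by ASO-L1 against sO-L1. Intervals of both ASO-L1 comparisons lie right of 0 for all 10 genes, from ATF5 at 1.93 and 2.01 to ATF4 at 0.37 and 0.42, while those of sO-L1 against ASO-Ctr cover 0 for 9 and that of PPP1R15A starts just above it.

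Between the 2 control oligos, sO-L1 against ASO-Ctr, edgeR called 0 of the 10 genes, with 1 at an unadjusted p under 0.05, PPP1R15A (0.18 ± 0.09 on the log2 scale, adjusted p = 0.376). DESeq2, limma-voom and edgeR without the replicate block also called 0, with 0 at an unadjusted p under 0.05. Of all tested genes 0.658% were called higher and 1.06% lower in this comparison, 1.72% in all. For the 9 genes other than TRIB3 the 95% intervals of the fold change in the blocked fit ran from 0.847 at the lowest to 1.43 at the highest. Unblocked SEs on the log2 scale were larger for these 9, such as 0.310 against 0.153 for DDIT3 and 0.214 against 0.075 for ATF5. Larger differences are therefore not excluded. For TRIB3 the interval was 0.588 to 1.58.

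The size of the response differed among the 10 genes. ATF5, DDIT3, TRIB3, STC2 and ATF3 at least doubled in both ASO-L1 comparisons, 5 of 10 genes, against 0.835% and 0.548% of all tested genes that were called higher with such a fold. CEBPB and SESN2 took a middle place, and PPP1R15A, CEBPG and ATF4 rose least. In levels per kilobase of exon, with exon lengths from GENCODE release 29, ATF4 held place 1 at 174 CPM per kb in ASO-L1, 135 in sO-L1 and 130 in ASO-Ctr. CEBPG held place 2 in every group at 24.2, 18.6 and 17.6 CPM per kb. ATF5 held place 3 in ASO-L1 at 23.6 CPM per kb, next to CEBPG within the spread of its libraries, and place 6 in sO-L1 and ASO-Ctr at 6.11 and 5.71. ATF3 and DDIT3 held places from 8 to 10 in all groups. The authors' annotation for counting is not given in the sources used here, so these lengths may differ from theirs.

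Patterns over the 6 libraries were compared by Euclidean distance between log2 CPM values centred on each gene's mean. Among the 10, ATF4 and CEBPG were closest (0.129), then ATF3 and STC2 (0.225), and ATF4 and ATF5 were farthest apart (1.86). Among 10289 other genes with an average log2 CPM of at least 3, those nearest to the mean pattern of the 10 were ASNS (0.178), IFRD1 (0.187), TXNIP (0.214), VLDLR (0.261) and RHOU (0.268). ASNS, which makes asparagine, stood at 251 and 203 CPM in ASO-L1, 124 and 109 CPM in sO-L1 and 106 and 97.2 CPM in ASO-Ctr. TXNIP, an alpha-arrestin that binds thioredoxin, stood at 34.7 and 23.2 CPM in ASO-L1, 14.7 and 14 CPM in sO-L1 and 13.6 and 12.1 CPM in ASO-Ctr. The nearest to ATF4 were PTP4A1 (0.0585), ZFAS1 (0.0609), C10orf114 (0.071), HS3ST3B1 (0.0817) and NSUN5 (0.0833), all with rises between 0.32 and 0.36 on the log2 scale against sO-L1.

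The rise was present within each replicate number but was not equal. Log2 ratios of ASO-L1 to sO-L1 were above 0 for 10 of 10 genes in replicate 1 and 10 of 10 in replicate 2. They were larger in replicate 1 for 9 of 10, all but ATF4. Against ASO-Ctr they were larger in replicate 1 for 10 of 10. Among all genes called higher, the share larger in replicate 1 was 71.2% and 71.9%. For DDIT3 the ratios to sO-L1 were 1.70 in replicate 1 and 1.13 in replicate 2, for TRIB3 1.64 and 1.07, and for CEBPB 1.09 and 0.64. All 10 genes were higher in replicate 1 than in replicate 2 of ASO-L1, against 6 of 10 in sO-L1 and 3 of 10 in ASO-Ctr. With 1 library per group and replicate number, this difference could not be tested.

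**Figure D3:**
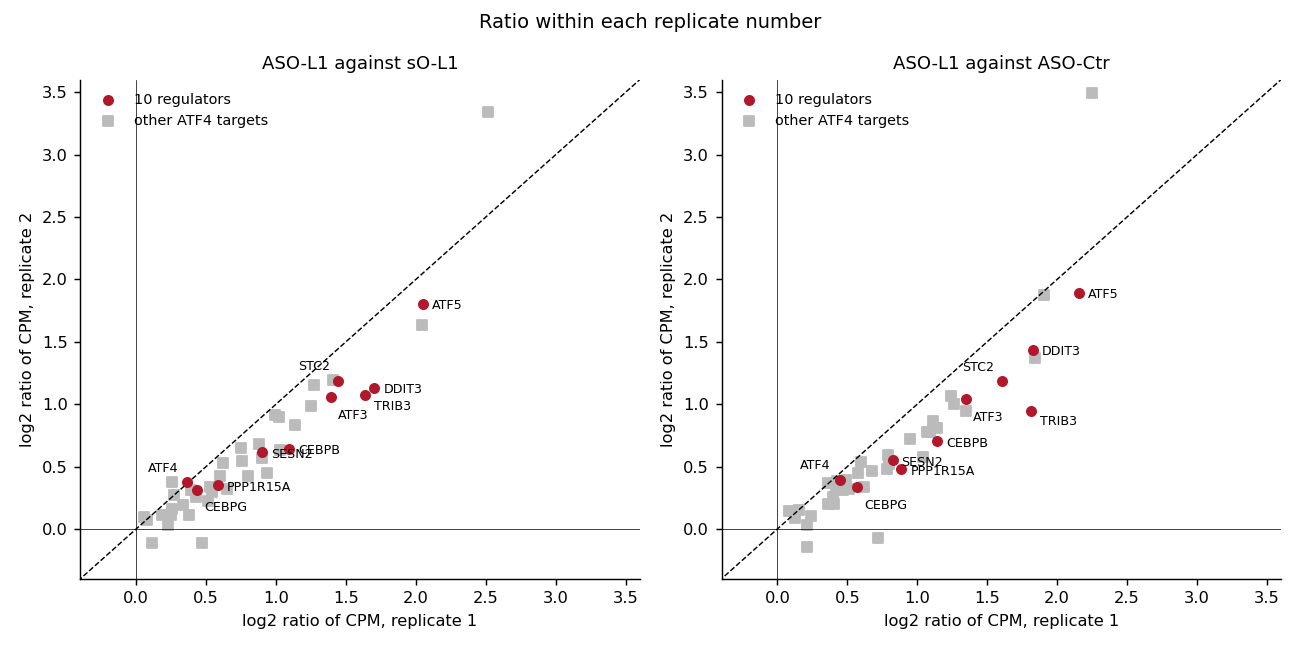
Log2 ratio of CPM within replicate 1 (horizontal) and within replicate 2 (vertical) for ASO-L1 against sO-L1 (left) and against ASO-Ctr (right), with circles for the 10 regulators, squares for other ATF4 targets and a dashed line of equality. All 10 regulators lie right of and above 0, and 9 and 10 of them lie below the line, while the square far above the line is FGF21, which had at most 23 counts in a library.

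Among 22 tested genes for eIF2 kinases, eIF2 and eIF2B subunits, phosphatase parts and modulators, 3 were called higher, 4 lower and 15 not in ASO-L1 against sO-L1, beside 10.3% higher and 12.7% lower over all tested genes. The list had a median log2 fold change of -0.05. Against ASO-Ctr 6 were higher and 2 lower, beside 9.88% and 11.6% over all tested genes, with a median of 0.01. Without the replicate block the calls were 1 and 0 genes against sO-L1, with 6 at an unadjusted p under 0.05, and 0 and 0 against ASO-Ctr, with 4. Besides PPP1R15B, those with the smallest p against sO-L1 were the amino acid-sensing kinase gene EIF2AK4, the eIF2B subunit gene EIF2B4 and the mitochondrial protease gene OMA1. EIF2AK4 fell by 0.21 ± 0.05, EIF2B4 rose by 0.21 ± 0.05 and OMA1 fell by 0.35 ± 0.09 on the log2 scale (adjusted p = 9.5e-04, 0.0017 and 0.00208), and unblocked fits gave adjusted p = 0.362, 0.272 and 0.154. Against ASO-Ctr OMA1 was not called (-0.10 ± 0.09, adjusted p = 0.508). It stood at 11.4 and 10.7 CPM in ASO-L1, 14.3 and 13.9 CPM in sO-L1 and 10.7 and 12.4 CPM in ASO-Ctr. EIF2AK4 (-0.22 ± 0.05) and EIF2B4 (0.14 ± 0.05) were called against ASO-Ctr (adjusted p = 5.1e-04 and 0.0449, or 0.328 and 0.449 unblocked).

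Most known ATF4 targets outside the 10 rose. Of 35 tested, 30 were called higher and 5 were not called in ASO-L1 against sO-L1, beside 10.3% higher over all tested genes. The count against ASO-Ctr was also 30, beside 9.88%. Median log2 fold changes were 0.48 and 0.52. Without the replicate block 19 and 22 were called higher, beside 0.914% and 0.903%. The list had been drawn up with earlier results of these data known, so its direction is not independent evidence. SLC7A11, the cystine importer, rose by 1.11 ± 0.06, ASNS by 0.96 ± 0.05, the activin subunit gene INHBE by 1.80 ± 0.10 and CHAC1, which degrades glutathione, by 1.30 ± 0.08 against sO-L1 (adjusted p = 3.1e-21, 8.1e-21, 4.5e-20 and 5.0e-18). INHBE stood at 21.3 and 18.6 CPM in ASO-L1, 5.17 and 6 CPM in sO-L1 and 5.68 and 5.09 CPM in ASO-Ctr, without overlap between ASO-L1 and the others.

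Genes linked to CHOP and cell death divided, beside 10.3% and 9.88% of all tested genes called higher against sO-L1 and against ASO-Ctr. Of 8 tested, DDIT4, GADD45A and BBC3 were called higher in both ASO-L1 comparisons and 5 were not called, among them PMAIP1 (-0.08 ± 0.05, adjusted p = 0.242), TNFRSF10B (0.07 ± 0.05, adjusted p = 0.289) and ERO1L (0.06 ± 0.06, adjusted p = 0.508) against sO-L1. DDIT4, an inhibitor of mTORC1, rose by 1.21 ± 0.09 and GADD45A by 0.62 ± 0.07 (adjusted p = 3.6e-14 and 2.2e-10). BBC3, the death gene known as PUMA, rose by 0.41 ± 0.07 (adjusted p = 2.4e-05, or 0.114 without the replicate block). PPP1R15A, ATF3 and SESN2 are also known to respond to p53. Of 19 tested p53 targets, 10 were called higher and 9 not called against sO-L1, beside 10.3% higher over all tested genes. The median log2 fold change was 0.16. Against ASO-Ctr 11 were higher, beside 9.88%, with a median of 0.32. The unblocked fit called 6 and 6 higher, beside 0.914% and 0.903%. The smallest p-values belonged to PHLDA3 (0.66 ± 0.05), CDKN1A (0.65 ± 0.05), ZMAT3 (0.56 ± 0.05) and GDF15 (0.97 ± 0.09) against sO-L1. Without the block ZMAT3 was not called (adjusted p = 0.0573). Against ASO-Ctr these genes rose by 0.71 ± 0.06, 0.53 ± 0.06, 0.33 ± 0.05 and 0.63 ± 0.09. GDF15 lay lower in sO-L1 than in ASO-Ctr (-0.33 ± 0.10, adjusted p = 0.0797). It is also in the list of ATF4 targets. The part of p53 targets in the rise of the 10 genes was not tested.

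The list for the ATF6 and XBP1 arm, which raises chaperones of the endoplasmic reticulum, had genes called lower and 0 called higher. Of 20 tested genes, 10 were called lower and 10 not called in ASO-L1 against sO-L1, beside 12.7% lower over all tested genes. The median log2 fold change was -0.13. Against ASO-Ctr 3 were lower and 17 not called, beside 11.6% lower over all tested genes, with a median of -0.07. Without the replicate block 1 and 0 were called lower, beside 0.924% and 1.05%, with 7 and 2 at an unadjusted p under 0.05. HSPA5, the chaperone BiP, stood at 839 and 840.5 CPM in ASO-L1, 990.5 and 982 CPM in sO-L1 and 965 and 899 CPM in ASO-Ctr. HSP90B1 fell by 0.36 ± 0.05, PDIA4 by 0.30 ± 0.05, HSPA5 by 0.23 ± 0.05 and PDIA6 by 0.22 ± 0.05 on the log2 scale against sO-L1 (adjusted p = 4.9e-08, 1.5e-06, 1.3e-04 and 3.1e-04), with unblocked values of 0.0432, 0.0643, 0.136 and 0.144. HSP90B1 was also higher in sO-L1 than in ASO-Ctr (0.18 ± 0.05, adjusted p = 0.0306). XBP1 stood at 120 and 111 CPM in ASO-L1, 124.7 and 112.4 CPM in sO-L1 and 107 and 105 CPM in ASO-Ctr, and was not called. The list leaves out HERPUD1, a stress gene of the endoplasmic reticulum that was counted among the ATF4 targets. HERPUD1 was higher by 0.21 ± 0.07 against sO-L1 and by 0.31 ± 0.07 against ASO-Ctr (adjusted p = 0.0187 and 6.6e-04, or 0.35 and 0.159 unblocked). The counts for both lists depend on where such genes are placed.

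**Figure D4:**
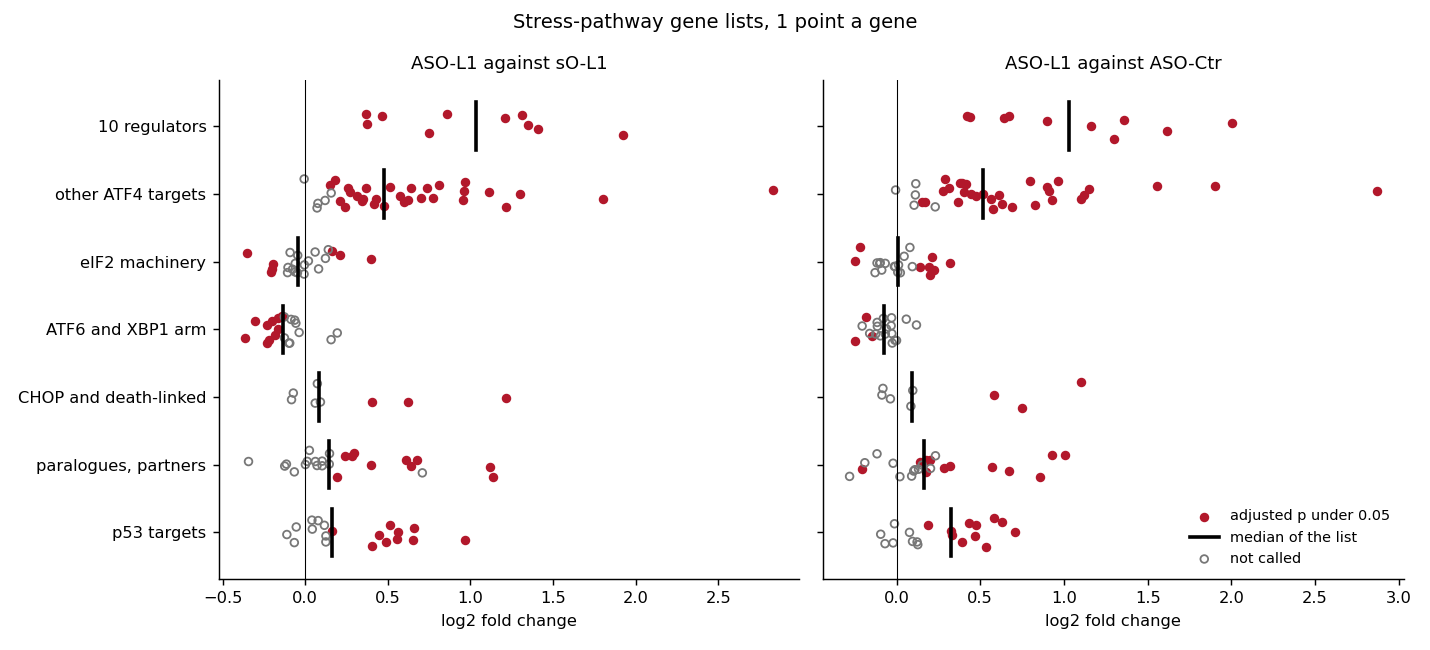
Log2 fold change of each tested gene in 7 lists for ASO-L1 against sO-L1 (left) and against ASO-Ctr (right), with filled points for an adjusted p under 0.05, open points for genes not called and a bar at the list's median. The 10 regulators and the other ATF4 targets lie mostly right of 0 (medians 1.03 and 0.48 on the left), the eIF2 machinery is centred near 0 and the ATF6 and XBP1 arm lies mostly left of it (median -0.13).

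Not all relatives of the 10 genes were called. Of 24 tested genes listed as paralogues or bZIP partners, 10 were called higher and 14 not called against sO-L1, with a median of 0.15. Against ASO-Ctr 11 were higher and 1 lower, with a median of 0.16. Over all tested genes 10.3% were higher against sO-L1, and 9.88% higher and 11.6% lower against ASO-Ctr. The unblocked fit called 5 and 4 higher, beside 0.914% and 0.903% over all tested genes. FOSL1 rose by 1.13 ± 0.07, FOSL2 by 1.12 ± 0.11 and MAFG by 0.61 ± 0.05 against sO-L1, all AP-1 or small MAF partners (adjusted p = 9.1e-18, 8.3e-11 and 7.5e-13). Against ASO-Ctr the rises were 0.85 ± 0.07, 1.01 ± 0.12 and 0.57 ± 0.05. FOSL1 stood at 38.2 and 32.7 CPM in ASO-L1, 15.9 and 16 CPM in sO-L1 and 20.3 and 18.8 CPM in ASO-Ctr. JDP2, a close relative of ATF3, rose by 0.64 ± 0.11 against sO-L1 (adjusted p = 5.8e-06). Beside SESN2, the sestrin genes SESN1 (-0.07 ± 0.05, adjusted p = 0.411) and SESN3 (0.01 ± 0.06, adjusted p = 0.909) were not called against sO-L1. SESN3 was the 1 gene called lower against ASO-Ctr (-0.20 ± 0.06, adjusted p = 0.00542, or 0.294 in the unblocked fit), and it was also lower in sO-L1 than in ASO-Ctr (-0.22 ± 0.06, adjusted p = 0.0317). Beside TRIB3, TRIB2 rose by 0.28 ± 0.05 against sO-L1 (adjusted p = 8.3e-06, or 0.0782 without the replicate block). TRIB1 was not called in that comparison (0.07 ± 0.05, adjusted p = 0.33). STC1, the paralogue of STC2, stood at 21.5 and 20.8 CPM in ASO-L1, 20.9 and 18.7 CPM in sO-L1 and 22.4 and 17.8 CPM in ASO-Ctr, and was not called. CEBPZ, which is in the list by symbol and is not a bZIP factor, was not called against sO-L1 (0.03 ± 0.05, adjusted p = 0.75). It was higher against ASO-Ctr (0.14 ± 0.05, adjusted p = 0.023, or 0.381 in the unblocked fit). CEBPA and CEBPD were at most 0.306 and 1.69 CPM in any library and were not called. Whether a gene and its paralogue differed in their response was not tested.

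Immediate-early genes, which react to handling, were uneven: of 12 tested, 4 were called higher, 1 lower and 7 not called against sO-L1, and 5 higher and 1 lower against ASO-Ctr. Over all tested genes 10.3% were higher and 12.7% lower against sO-L1, and 9.88% higher and 11.6% lower against ASO-Ctr. The unblocked fit called 0 in either, with 4 and 5 at an unadjusted p under 0.05. EGR1 fell by 0.58 ± 0.06, while NR4A1 rose by 0.43 ± 0.09, IER3 by 0.28 ± 0.07 and ZFP36 by 0.47 ± 0.12 against sO-L1 (adjusted p = 6.1e-11, 2.3e-04, 0.00155 and 0.00346), with unblocked values of 0.142, 0.259, 0.208 and 0.17. Their part in the result was not tested. In the authors' deposited table for ASO-L1 minus sO-L1, the log2 fold changes of the 10 genes ran from 0.38 for ATF4 to 1.93 for ATF5. The largest adjusted p among the 10 in the authors' deposited table was 1.5e-04, for PPP1R15A, and that of TRIB3 was 1.4e-10.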

How the data were processed

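Poly(A) RNA was sequenced with a directional kit, per the labels' protocols. Trim Galore 0.4.0, TopHat2 2.0.13, featureCounts of Subread 1.5.0 and build hg19 are named in the submitters' processing notes. The deposited table holds raw counts per gene symbol with duplicates removed, per its name. The deposited log2 table is batch-corrected, per its name, and served to check that the header's names belong to the count columns. Another table, of the authors' own comparison, holds log2 values (fold change, average), p-values and 2 scores as deposited, and its scores were not used. The 92 spike-in entries were left out.

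Genes passing filterByExpr (minimum count 10, minimum total 15) were scaled by TMM. A robust quasi-likelihood model of group and replicate number was run in edgeR 4.0.16 (R 4.3.3), with all 6 libraries in 1 fit with 2 residual degrees of freedom. Each gene's spread was drawn towards that of all genes, with a median of 44.8 prior degrees of freedom. Small p-values therefore rest largely on this shared spread. Each SE is the size of the log2 fold change divided by the root of its F statistic. Limma 3.58.1 and DESeq2 1.42.0 were alternatives. The fit was tested on simulated data in which each gene's replicate shift was the same in all groups. That simulation therefore cannot show whether the replicate block suits these libraries.

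The replicate number was used since a batch-corrected table is among those listed, though no label ties a number to a batch. Differences between replicates correlated at 0.246, 0.153 and 0.224 between groups across genes. Equal replicate means, within 0.02, were found for 82.6% of genes of the deposited log2 table.

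The 10 genes and the lists were chosen with earlier results of these data known. Some genes are in more than 1 list, so the counts of the lists are not independent of each other. GDF15, DDIT4 and JDP2 are ATF4 targets and are also in the p53, CHOP and paralogue lists, respectively. PPP1R15B is in the eIF2 and the paralogue lists. Named were all 10, the 4 genes of each list with the smallest p against sO-L1, their paralogues and the 5 nearest patterns. TNFRSF10B, ERO1L, XBP1, HERPUD1, FGF21, POU5F1, LIN28A, CDX2, DCN, GATA3 and COL3A1 were named outside this rule, after their values were seen.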

Additional observations from a re-analysis of the deposited data

How the results depend on the processing

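The direction of all 10 genes in both ASO-L1 comparisons held under the 15 alternatives that refit the data. Calls were lost there for 4 genes: ATF4, CEBPG and PPP1R15A without the replicate block and TRIB3 in 3 settings. With a fold of at least 2 the genes called higher numbered 5 and 5. In the comparison of the 2 control oligos none of the 10 was called under any of these alternatives. Thinned to the depth of the shallowest library, TRIB3 lost both calls, and DDIT3, with the lowest count of the 10 at 67, kept its calls in all 15.

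Over all genes, calls higher and lower moved with the setting. For ASO-L1 against sO-L1 they numbered 1052 and 1312 with DESeq2, 175 and 177 without the replicate block, 160 and 64 with a 2-fold rule, and 773 to 2087 and 1029 to 2615 when single libraries were left out. For ASO-L1 against ASO-Ctr the same settings gave 1151 and 1290, 173 and 201, 105 and 105, and 1058 to 1706 and 1278 to 1987. For sO-L1 against ASO-Ctr they gave 54 and 71, 0 and 0 (569 at unadjusted p under 0.05), 1 and 10, and 2 to 217 and 7 to 279. In that comparison limma-voom gave 62 and 106, thinning gave 79 and 135, and the 4 libraries compared gave 229 higher. The cause was not tested.

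Log2 values of sO-L1 against ASO-Ctr, none of them called, changed sign in some settings. TRIB3 was 0.012 with DESeq2, 0.0039 without the replicate block and 0.020 with thinning, and ATF3 was 0.060 with thinning. When single libraries were left out, the values ran from -0.270 to 0.378 for TRIB3, -0.186 to 0.080 for ATF3, -0.0096 to 0.191 for ATF5, -0.059 to 0.398 for DDIT3, -0.126 to 0.203 for CEBPB, -0.0073 to 0.167 for CEBPG, -0.176 to 0.014 for SESN2 and -0.066 to 0.245 for STC2. The cause was not tested.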
